A study of Equus caballus with 24 samples.

Results

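Allergic horses were set against healthy horses in the Clinical Phase, through the RNA of their IgE-binding monocytes. This phase is the summer sampling at which the allergic horses had signs of disease. The comparison took all 12 Clinical Phase libraries of the 24 in the series, 7 from allergic horses and 5 from healthy horses, as labelled, across all genes. The question was how these cells differ with allergy while the allergen is present. The animals were Icelandic horses that lived together and shared natural exposure to Culicoides midges. The allergic horses (A1 to A7 in the labels) had Culicoides hypersensitivity and were sampled with chronic signs in August to September, and the healthy horses (H1, H2, H4, H6 and H7) had the same exposure and no disease. Each horse gave 1 library per phase, so the replicates are separate animals and no library of one group is paired with a library of the other. The allergic horses were older on the whole and included a gelding, whereas all healthy horses were mares, so age and allergy cannot be told apart here. The cells were sorted by flow cytometry from blood as CD14 low, IgE+, MHCII high, CD16- and CD163- and were frozen before RNA extraction. The count files name genes by Ensembl identifier only and do not pair them with symbols, so the sorted cell type was not checked against its marker genes.

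Monocytes are circulating myeloid cells that can hold IgE on a surface receptor and so meet allergen. Coagulation factor XIII A chain, encoded by F13A1, belongs to a transglutaminase that cross-links fibrin and is made by monocytes and macrophages, and C1R is a serine protease of the first complement complex. CCR10 is a receptor for chemokines of skin and mucosa. ATP6 and ND5 are mitochondrial genes for subunits of ATP synthase and of respiratory complex I.

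Total counts per library lay between 14493071 and 24832163, with a median of 21142349 in the allergic group and 16509039 in the healthy group. The difference in mean total had a two-sided exact permutation p of 0.168 over all 792 assignments of the labels. Genes with at least 1 count numbered 12624 to 13902 in the allergic libraries and 13010 to 13660 in the healthy libraries. Their means were 13392 ± 435 (SD, n = 7) and 13319 ± 280 (SD, n = 5), and the exact permutation p of the difference was 0.747. After thinning all libraries to the lowest total, the difference went from 73.8 to 3.91 genes (exact permutation p 0.989). The 20 most abundant genes held 14.7% to 17.7% of the counts, with overlapping groups. Depth and the number of detected genes therefore overlapped between allergic and healthy horses, although more of the deeper libraries were allergic.

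No separation of whole transcriptomes by allergy was detected. On log2(CPM + 4), where CPM is the count scaled to library depth with TMM factors, the mean distance (root mean square difference over genes) was 0.391 among the 21 allergic pairs, 0.364 among the 10 healthy pairs and 0.375 among the 35 mixed pairs. Mixed pairs were no farther apart than the 31 pairs within a group, with a difference of -0.00729 (two-sided exact permutation p 0.654), and between -0.0191 (without H6) and -0.000390 (without A7) when a horse was left out. The spread within allergic minus that within healthy horses was 0.0267 (exact permutation p 0.698), and -0.0119 without A6. The nearest library belonged to the same group for 6 of 12 libraries, against 5.64 expected with exchangeable labels. The first principal component held 35.0% of the variance, and its ends were an allergic horse, A6, and a healthy horse, H6. A6 was also the library farthest from all others, with a mean distance of 0.494 against 0.336 to 0.433 for the other libraries.

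**Figure D1:**
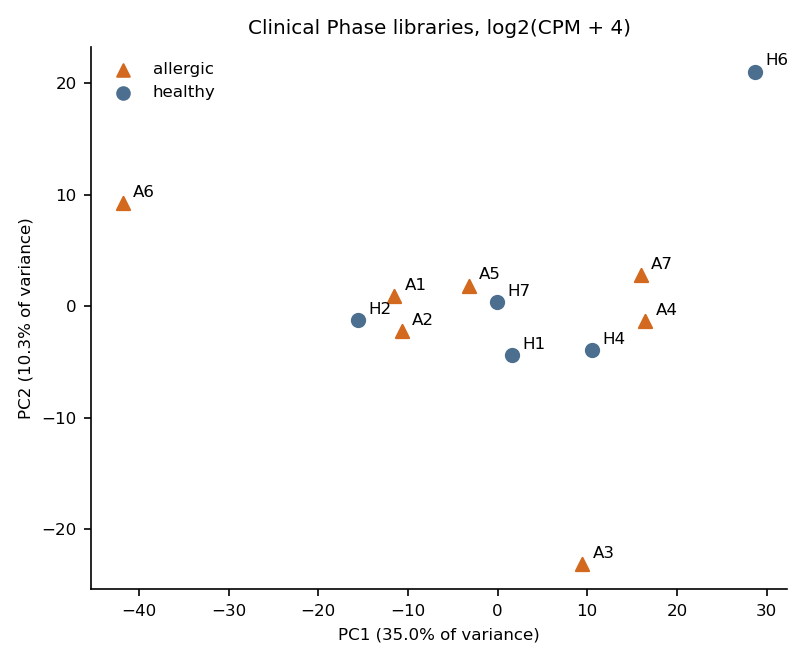
The 12 Clinical Phase libraries on the first and second principal components of log2(CPM + 4), with the share of variance of each on its axis, triangles for allergic and circles for healthy horses. The groups are mixed, with A6 at the left end (-41.8) and H6 at the right end (28.7) of the first component.

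A level of 0.5 CPM was reached in 1 or more libraries by 13315 genes. Of these, edgeR's quasi-likelihood test with Benjamini-Hochberg adjustment called 0 (0% of genes tested), and its smallest adjusted p was 0.0969, shared by 4 genes. At an unadjusted p under 0.05 there were 444 genes (3.33%, against 5% expected with no difference), 258 higher and 186 lower in allergic horses. DESeq2's Wald test, the test the study used, called 9 of the 13301 genes to which it gave an adjusted p, 3 higher (0.0226%) and 6 lower (0.0451%) in allergic horses. All 4 genes at the smallest edgeR adjusted p were among those 9. In bulk libraries like these, fewer cells with a transcript and less transcript per cell cannot be told apart. Without the low-level filter edgeR called 4 genes, and without healthy horse H4 it called 6. DESeq2 with both phases in 1 fit, an alternative chosen after seeing the data, called 6 genes, of which 5 were among the 9. Over the 9 alternative fits the smallest adjusted p of each of the 9 genes was that of DESeq2, and the largest lay between 0.259 (gene L1) and 1.00.

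A gene is called by a symbol here where exactly 1 gene had the values printed for that symbol in one phase, and by a letter otherwise. The match took the printed fold change as DESeq2's log2 fold change, beside its adjusted p, both rounded as printed. F13A1, C1R, IGF2BP3, ATP6 and ND5 were matched on Remission Phase values, so their Clinical Phase values played no part in the match. In the Clinical Phase the printed fold change of F13A1 and adjusted p of ATP6 differed from those of the matched genes. The printed adjusted p of F13A1 and fold change of ATP6 equalled theirs. CCR10 and KEF40 were matched on the Clinical Phase contrast itself, and their values there are a description.

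The gene farthest apart among those called higher was the F13A1-matched gene (ENSECAG00000008295). Its level in the allergic horses ran from 3.22 to 51.3 CPM with a median of 23.3 CPM. In the healthy horses it was 2.49 CPM in H1, 1.97 CPM in H2, 2.26 CPM in H4, 1.18 CPM in H6 and 1.45 CPM in H7. Every allergic library lay above every healthy library, but A3 (3.22 CPM) and A1 (4.85 CPM) lay close to the healthy range while the other allergic horses were at 19.5 CPM or more. The means were 23.2 ± 16.6 CPM (SD, n = 7) and 1.87 ± 0.547 CPM (SD, n = 5), and the log2 fold change was 3.62 (SE 0.59, 95% interval 2.36 to 4.88), a 12.3-fold difference. EdgeR gave an adjusted p (quasi-likelihood, Benjamini-Hochberg) of 0.0969 and DESeq2 one of 6.36e-06. DESeq2 called it without each of the 12 horses in turn, with adjusted p at most 0.000554, and in these fits edgeR called it without A1 and without A3, the allergic horses with the lowest levels. Of the 9 alternative fits with all horses only DESeq2 and edgeR without the low-level filter called it, and the adjusted p was 0.537 by edgeR with robust estimation, 0.998 by limma voom with sample quality weights (log2 fold change 3.02) and 1.00 by limma voom with both phases and the horse as a random block (3.16). In the Remission Phase of the same horses the log2 fold change was 4.42 (SE 0.77, adjusted p 0.137 by edgeR), and the groups again did not overlap. A3 was again the lowest allergic horse there, at 6.67 CPM, and A1 was at 9.17 CPM. A6 and A7 lay between them at 7.56 and 7.61 CPM, while A2, A4 and A5 were at 50.8 CPM or more. The low allergic horses of the Clinical Phase were thus low in both phases, and A6 and A7 were low in the Remission Phase only.

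The C1R-matched gene, by contrast, overlapped between the groups in the Clinical Phase. It lay between 0.134 and 14.2 CPM in allergic horses, with a median of 3.21 CPM. In the healthy horses it was 2.29 CPM in H1, 0.849 CPM in H2, 1.31 CPM in H4, 0.373 CPM in H6 and 2.08 CPM in H7. A3 held the highest level, A2 the lowest of all 12 libraries, and 5 of 7 allergic horses were above every healthy horse. The log2 fold change was 1.53 (SE 0.75, 95% interval -0.07 to 3.12) with an adjusted p of 1.00 by edgeR with Benjamini-Hochberg adjustment, so a difference of several fold was neither detected nor outside the interval. Without A3 the log2 fold change was 0.74, and by limma voom with sample quality weights it was 0.71.

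Genes U1 (ENSECAG00000011257) and U2 were called higher at much smaller differences. Gene U1 ran from 73.8 to 90.8 CPM with a median of 87.6 CPM in allergic horses. In the healthy horses it was 69.0 CPM in H1, 64.1 CPM in H2, 51.8 CPM in H4, 49.0 CPM in H6 and 61.1 CPM in H7. The groups did not overlap, and both were narrow. Its log2 fold change was 0.52 (SE 0.11), with adjusted p of 0.409 by edgeR and 0.0201 by DESeq2. Gene U2 ran from 51.6 to 101 CPM (median 73.4 CPM) in allergic and from 28.8 to 54.9 CPM (median 38.6 CPM) in healthy horses. A5 alone of the allergic horses lay within the healthy range of gene U2, and the log2 fold change was 0.85 (SE 0.19, adjusted p 0.675 by edgeR and 0.0314 by DESeq2). DESeq2 kept the call without a horse in 4 of 12 cases for gene U1 and 5 of 12 for gene U2, and lost both with both phases in 1 fit (adjusted p 1.00 and 0.505).

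**Figure D2:**
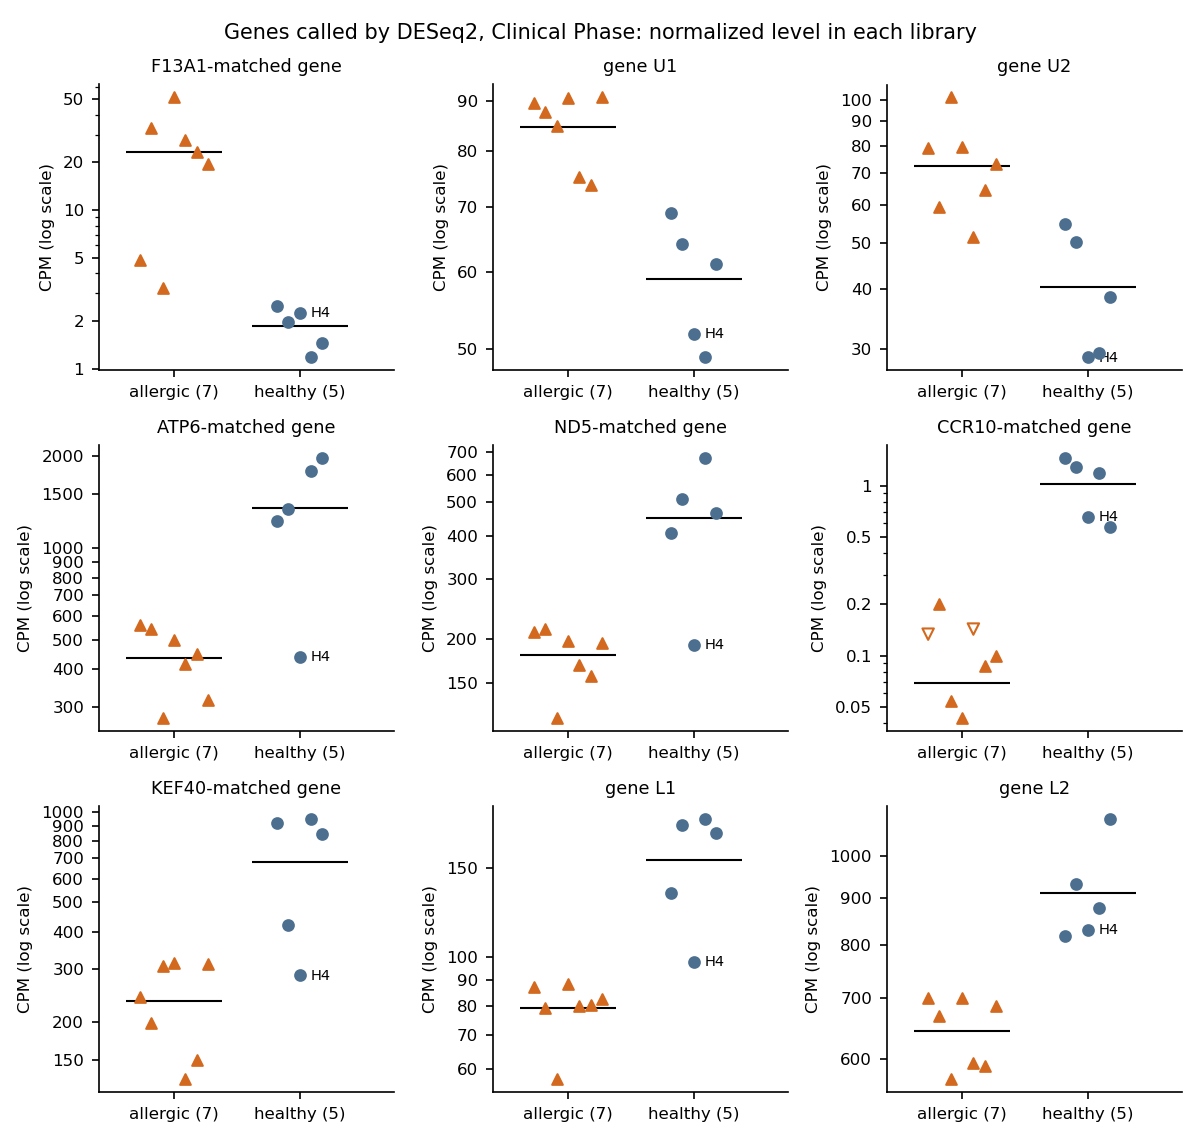
Level of each of the 9 genes called by DESeq2 in each Clinical Phase library, in TMM-scaled CPM on a log axis whose range differs between panels. Filled triangles are allergic and circles healthy horses, lines are group means, open triangles stand at the limit of 3 counts for the allergic libraries with 0 counts, and H4 is the healthy horse that lies among the allergic horses for the ATP6-, ND5- and KEF40-matched genes.

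Among the genes called lower, the CCR10-matched gene (ENSECAG00000038719) had the largest fold difference at the lowest level. The allergic libraries held 0 to 3 counts each, at most 0.202 CPM with a median of 0.0537 CPM. The healthy libraries held 29 counts in H1, 29 in H2, 11 in H4, 19 in H6 and 9 in H7, or 0.568 to 1.45 CPM with a median of 1.18 CPM. All 7 allergic libraries were below all 5 healthy libraries. A1 and A5 had 0 counts, which allows up to 0.134 and 0.143 CPM at 3 counts, counting error only. The fitted log2 fold change was -3.84 (SE 0.80, 95% interval -5.54 to -2.15), with adjusted p of 0.396 by edgeR and 0.00241 by DESeq2. DESeq2 called the gene without each horse in turn, and limma voom with both phases and the horse as a random block called it (adjusted p 0.0356). With a common horse correlation of 0.0928, that voom fit took both libraries of a horse almost as separate animals. With both phases in 1 fit the call was lost by DESeq2 (adjusted p 0.505), and edgeR gave an adjusted p of 1.00. In the Remission Phase no library of either group reached 0.5 CPM, so its fold change was not tested there, and the difference between phases had an adjusted p of 0.978 by edgeR.

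The IGF2BP3-matched gene, whose product binds RNA, was also at few counts. Of the allergic libraries, 5 had 0 counts, A3 had 12 and A7 had 4. The healthy libraries had 36 counts in H1, 0 in H2, 5 in H4, 0 in H6 and 31 in H7. The high values belonged to H1 and H7, and the groups overlapped. The log2 fold change was -2.71 with a 95% interval from -5.68 to 0.26 and an adjusted p of 1.00 by edgeR with Benjamini-Hochberg adjustment. Single libraries moved it, to -4.39 without A3 and to -2.09 without H7.

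The other 5 genes called lower, the ATP6-, ND5- and KEF40-matched genes and genes L1 and L2, have identifiers within a run of 26 consecutive numbers. The called genes themselves set the ends of the run, and of its 9 other tested genes 6 were lower and 3 higher in allergic horses, with a median log2 fold change of -0.09 (47.2% lower and a median of 0.01 over all genes tested). Of these 9 genes 3 had an unadjusted p under 0.05, 2 lower and 1 higher, against 3.33% of all genes tested. The lower gene with the smallest p of the 3 had a log2 fold change of -1.32 (SE 0.31, adjusted p 0.842 by edgeR and 0.0825 by DESeq2), and DESeq2 called it without A1 (adjusted p 0.0320) and without H4 (0.00101). The most abundant gene of the run had a log2 fold change of -0.04 (95% interval -0.22 to 0.14). The ATP6-matched gene (ENSECAG00000027671) ran from 276 to 560 CPM with a median of 451 CPM in allergic horses. In the healthy horses it was 1222 CPM in H1, 1347 CPM in H2, 440 CPM in H4, 1789 CPM in H6 and 1966 CPM in H7. H4 lay among the allergic horses, and the other healthy horses were above all of them. The log2 fold change was -1.63 (SE 0.27, adjusted p 0.0969 by edgeR and 6.36e-06 by DESeq2).

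In the ND5-matched gene H4 was again apart from the other healthy horses. It ran from 118 to 215 CPM (median 195 CPM) in allergic horses and was 407 CPM in H1, 512 CPM in H2, 193 CPM in H4, 669 CPM in H6 and 464 CPM in H7. The log2 fold change was -1.32 (SE 0.23, adjusted p 0.0969 by edgeR and 2.07e-05 by DESeq2). The KEF40-matched gene ran from 129 to 315 CPM (median 242 CPM) in allergic horses and was 918 CPM in H1, 420 CPM in H2, 286 CPM in H4, 943 CPM in H6 and 843 CPM in H7. H4 lay within the allergic range in both genes. Its log2 fold change was -1.53 (SE 0.29, adjusted p 0.221 by edgeR and 0.000116 by DESeq2). DESeq2 lost this call without A2 and without A6, with an adjusted p of up to 0.0769, and with both phases in 1 fit (0.680).

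Genes L1 and L2 did not overlap between the groups. Gene L1 ran from 57.2 to 88.4 CPM (median 80.2 CPM) in allergic horses and from 97.6 CPM in H4 to 187 CPM in H6 (median 176 CPM). Its log2 fold change was -0.97 (SE 0.15), and it had the smallest p of all genes in edgeR (adjusted p 0.0969 with Benjamini-Hochberg adjustment, 2.07e-05 by DESeq2). Gene L2 ran from 570 to 700.2 CPM (median 669 CPM) in allergic and from 817 to 1096 CPM (median 876 CPM) in healthy horses. H4 was the healthy horse nearest to the allergic range in gene L1, and H1 in gene L2. The log2 fold change of gene L2 was -0.50 (SE 0.10, adjusted p 0.221 by edgeR and 0.00456 by DESeq2).

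**Figure D3:**
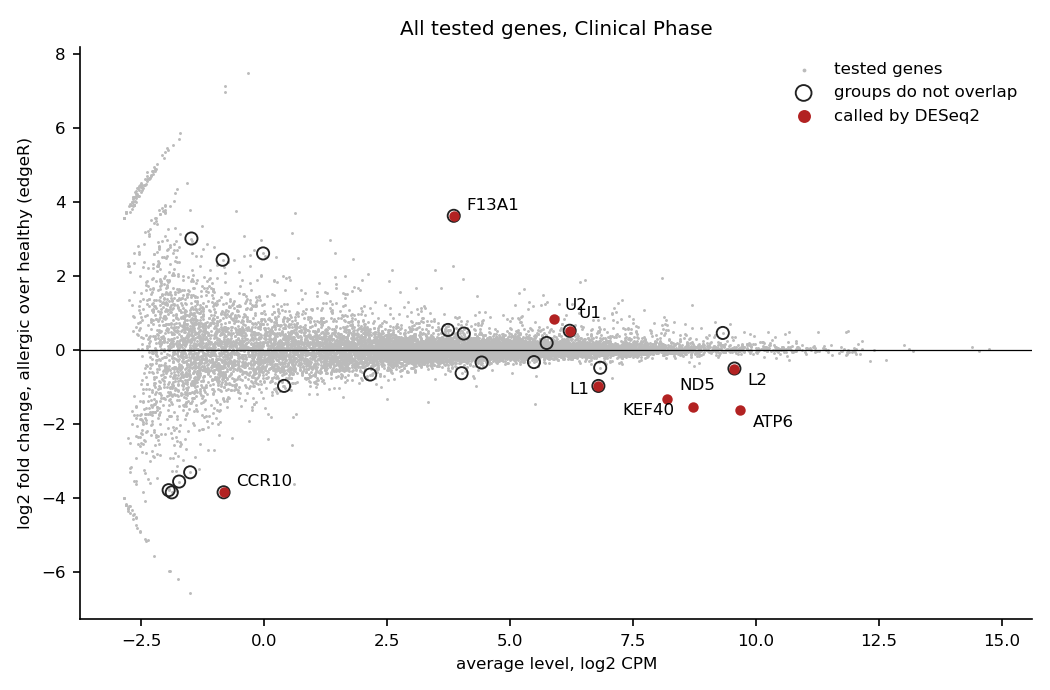
Log2 fold change (allergic over healthy, edgeR) against average level (log2 CPM) for the 13315 genes tested in the Clinical Phase, with filled points for the 9 genes called by DESeq2 and rings for the 22 genes whose groups did not overlap. Most genes lie near 0 at high level, and the spread widens toward low level.

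H4 was unlike the other healthy horses in more than these genes. Over all genes, however, its mean distance to the other libraries was 0.348, within the range of the other healthy horses (0.336 to 0.433). Genes P1 and P2 lie outside the rule for named genes and were chosen after their values were seen, as the pair with the widest gap in level between libraries. Gene P1 ran from 338 to 446 CPM in allergic horses (median 401 CPM) and was 475 CPM in H4, but 6.19 CPM in H1, 9.20 CPM in H2, 11.4 CPM in H6 and 10.6 CPM in H7. Gene P2 ran from 104 to 162 CPM in allergic horses (median 130.3 CPM) and was 171 CPM in H4, but 1.40 CPM in H1, 1.61 CPM in H2, 1.99 CPM in H6 and 1.58 CPM in H7. All allergic horses and H4 were high in both, and no library lay in between. With all 12 libraries the log2 fold changes were 1.94 (95% interval -0.02 to 3.91) and 1.90 (95% interval -0.28 to 4.08), each with an adjusted p of 1.00 by both edgeR and DESeq2. Limma voom with both phases and the horse as a random block, H4 included, gave 4.34 and 5.06 and called both genes (adjusted p 0.0356 each). That fit used a common horse correlation of 0.0928 for all genes, so it took both libraries of a horse almost as separate animals. As the genes were also chosen for their gap, the call is a description only. The horses kept their sides in the Remission Phase, with 323 to 432 CPM in allergic horses, 447 CPM in H4 and 5.22 to 6.26 CPM in the other healthy horses for gene P1. Both genes stood high in the horses in which the ATP6- and ND5-matched genes stood low, and what sets them was not tested. The study reports RNA integrity for each library, and its lowest value belonged to a Clinical Phase library of a healthy horse. The healthy libraries of the Remission Phase, in which H4 stood on the same side, all had the same reported value. The sample names given there do not use the horse codes, and the part of RNA integrity in the values of H4 was not tested.

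**Figure D4:**
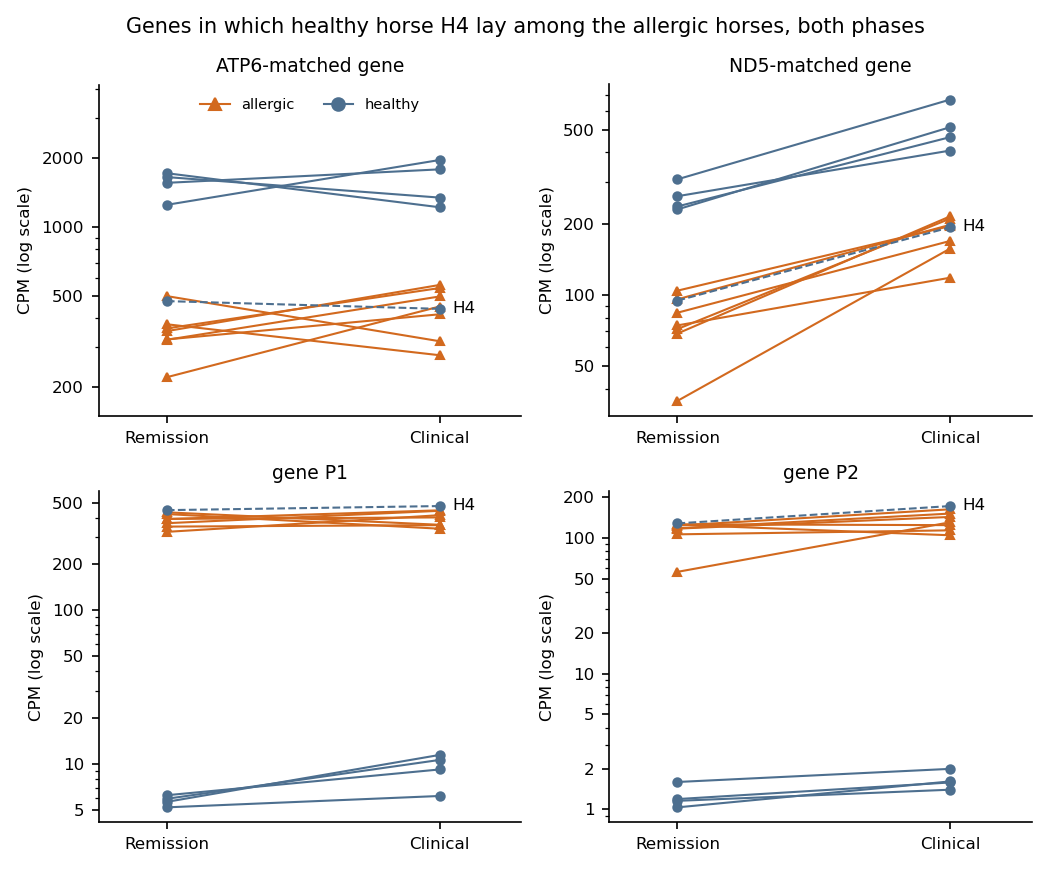
Level in TMM-scaled CPM (log axis) of the ATP6- and ND5-matched genes and of genes P1 and P2 in each horse in the Remission and Clinical Phases, 1 line per horse, triangles for allergic and circles for healthy horses, dashed for H4. In each panel and phase H4 lies at the level of the allergic horses or just beside it (475 CPM in gene P1, 440 CPM in the ATP6-matched gene, Clinical Phase), away from the other healthy horses.

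Leaving out H4 moved the edgeR count from 0 to 6 genes at an adjusted p under 0.05, namely the ATP6-, ND5- and KEF40-matched genes and gene L1, lower, and genes P1 and P2, higher in allergic horses. Genes P1 and P2 were chosen for a gap that put H4 with the allergic horses, so their separation without H4 follows from that choice. Without each of the other 11 horses edgeR called 0 or 1 gene. DESeq2 called 7 genes without A7 and 14 without H1, and between those counts without each of the other horses. All 9 genes called with 12 libraries kept their direction in each of these fits. They were called on these same libraries, and the groups of 5 of them did not overlap, so the kept direction is a description only.

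**Figure D5:**
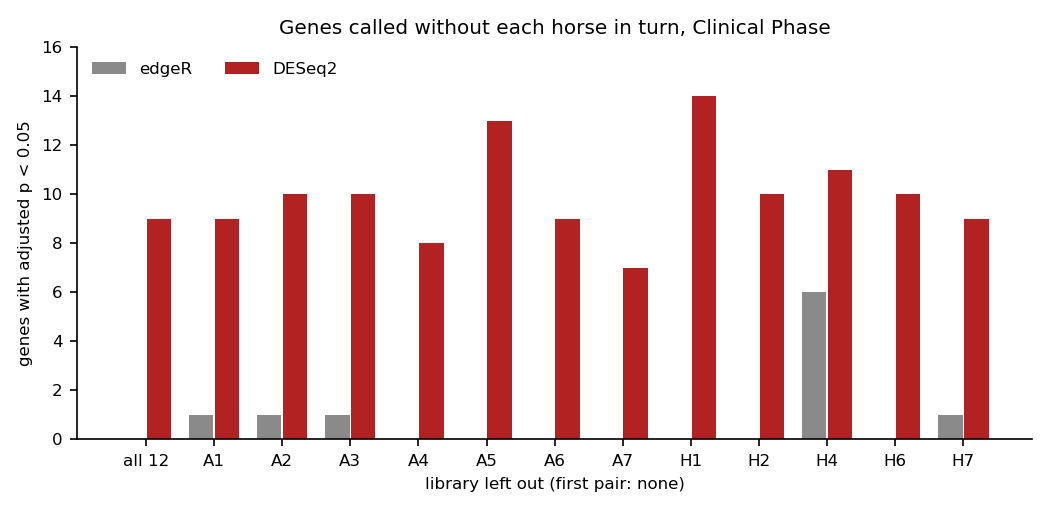
Number of genes with an adjusted p under 0.05 by edgeR and by DESeq2 with all 12 Clinical Phase libraries (first pair) and without each horse in turn. The edgeR count is 0 or 1 except without H4 (6), and the DESeq2 count lies between 7 and 14.

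Complete separation of the groups was rare. In 9 genes (0.0676% of those tested) every allergic library lay above every healthy library, and in 13 genes (0.0976%) every allergic library lay below. Exchangeable labels would give 0.126% in each direction (1 of the 792 assignments), or 33.6 genes in all, more than the 22 seen. With CPM from total counts, without TMM factors, the counts were 5 and 12. Of these 22 genes 8 stayed under 1 CPM in all libraries of at least one group. The F13A1-matched gene was the only one of the 22 whose groups also did not overlap, in the same direction, in the Remission Phase. DESeq2 called 5 of the 22.

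Among the genes that separated the groups without being called by either tool, gene U3 was the most abundant of those named. It ran from 591 to 873 CPM (median 718 CPM) in allergic horses and was 533 CPM in H1, 515 CPM in H2, 511 CPM in H4, 519 CPM in H6 and 549 CPM in H7. The healthy horses were close together and the allergic horses spread upward from them. Its log2 fold change was 0.46 (SE 0.10, adjusted p 0.454 by edgeR and 0.0518 by DESeq2). Gene U4 ran from 0.521 to 3.01 CPM in allergic and from 0 to 0.447 CPM in healthy horses, and gene U5 from 12.6 to 17.5 CPM and from 7.27 to 12.4 CPM. Gene L3 ran from 75.0 to 111 CPM in allergic and from 121 to 157 CPM in healthy horses, and gene L4 had 0 to 2 counts against 5 to 8. Adjusted p for these 4 genes was between 0.802 and 1.00 by edgeR with Benjamini-Hochberg adjustment.

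Values of the same horses in the Remission Phase differed between these genes. The log2 fold changes there were -1.92 (SE 0.26) for the ATP6-matched gene, which edgeR called (adjusted p 0.0387), and -1.57 (SE 0.27) for the ND5-matched gene, -1.10 (SE 0.21) for gene L1, 0.50 (SE 0.29) for gene U1, -0.32 (SE 0.13) for gene L2, 0.88 (SE 0.79) for gene U4 and -0.67 (SE 0.23) for gene L3, which it did not call (adjusted p 0.137 to 0.667). Each of these had the sign seen in the Clinical Phase, as had the C1R-matched gene at 2.94 (SE 0.72, adjusted p 0.472 by edgeR) and the IGF2BP3-matched gene at -4.98 (SE 1.10, 0.465). The groups of the C1R-matched gene did not overlap in that phase, and those of the IGF2BP3-matched gene did. With DESeq2 the study called C1R, IGF2BP3, F13A1, ATP6 and ND5 in the Remission Phase, at an adjusted p under 0.05. The KEF40-matched gene was at 0.00 (SE 0.47), gene U2 at -0.17 (SE 0.27), gene U3 at -0.08 (SE 0.15) and gene U5 at -0.24 (SE 0.17), the last 3 with the opposite sign (adjusted p 0.582 to 0.999 by edgeR for these 4 genes). Gene L4 was not tested there. The difference between phases itself, tested as an interaction over all 24 libraries, was called by edgeR in 0 of 13597 genes (505, or 3.71%, at an unadjusted p under 0.05) and in 0 by limma voom with the horse as a random block (558, or 4.10%). For the KEF40-matched gene and genes U2 and U3 its adjusted p was 0.962 by edgeR, so the larger value in the Clinical Phase was not shown to differ between phases. That edgeR fit held no term for the horse, and the voom fit used a common horse correlation of 0.0928 for all genes. Neither made full use of the pairing of libraries by horse, so a missed threshold here does not show that the phases were alike.

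How small a difference these libraries could bound depended on the level of the gene. The 95% interval of the log2 fold change lay wholly within 1 of 0, that is under a 2-fold difference either way, for 8746 of 13315 genes (65.7%). It did so for 2438 of 2570 genes (94.9%) with an average above 6 on the log2 CPM scale and for 3452 of 3590 (96.2%) between 4 and 6. Between 0 and 2 the count was 528 of 1901 genes (27.8%), and at an average of 1 CPM or less it was 2 of 2522. Fitted log2 fold changes beyond 1 in either direction occurred in 1037 genes, of which 876 averaged under 1 CPM. For most well-expressed genes a 2-fold difference between allergic and healthy horses thus lay outside the interval, while for genes at the level of the CCR10-matched gene the interval reached past that size in nearly all cases.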

How the data were processed

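RNA was poly-A selected and sequenced from a directional kit as 75 bp single-end reads. The authors trimmed reads with Trim Galore 0.6.0, mapped them with STAR 2.7.0e to EquCab3.0 and deposited whole-number counts per Ensembl gene for each library. The sources used here do not state the counting tool, strand setting or annotation release, and reads of overlapping, antisense or near-identical genes may be counted together.

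From these counts, genes reaching 0.5 CPM in 1 or more of the 12 Clinical Phase libraries were tested in R 4.3.3 with edgeR 4.0.16 (TMM, quasi-likelihood, Benjamini-Hochberg threshold 0.05) and, as an alternative, DESeq2 1.42.0. Interval bounds used the fold change over the root of F. Interactions used all 24 libraries, in edgeR with no term for the horse and in limma 3.58.1 (voom, horse as random block). Single values had exact permutation tests. The gene tests were tried on simulated counts of independent libraries with no effect of the horse, which cannot check them where libraries share a horse. Horse is shared between phases only, so the Clinical Phase groups have no pairing.

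Named genes were those matched by the study's printed values, those DESeq2 called and up to 5 per direction with the smallest edgeR p among genes whose groups did not overlap. Members and lists were chosen with earlier results of these data known. Floors of 3 counts cover counting error only. Some genes are not reported here. Alternatives were other scaling, filters, tests, thinning and leaving out each horse.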

Additional observations from a re-analysis of the deposited data

Results flagged for a closer look

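Among the named genes and library measures, 42 sets of values (allergic or healthy horses) were examined for a single horse far from the rest of its group, and 5 had one. Chance gives about 1 in 20. The share of the group's range taken by the gap to the nearest other horse was 0.757 for the C1R-matched gene (A3 at 14.2 CPM, next 3.56 CPM) and 0.692 for the IGF2BP3-matched gene (A3 at 0.645 CPM, next 0.199 CPM). It was 0.700 for gene L1, in which A3 was lowest at 57.2 CPM and the next allergic horse was at 79.0 CPM. For gene L4 it was 0.571, from A7 with 2 counts. The mean distance of A6 to the other libraries (0.494, next allergic horse 0.382) gave 0.775. Without A6 the allergic minus healthy difference in distance changed from 0.0267 to -0.0119.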

How the results depend on the processing

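The count of genes called was 0 by edgeR and also 0 with RLE factors, filterByExpr, robust estimation, sample quality weights in voom, thinning to the lowest total, both phases in 1 edgeR fit, and edgeR's older quasi-likelihood estimate (the last chosen after seeing the data). It was 9 with DESeq2, 4 without a filter on low counts, 3 with voom and the horse as random block, and 6 with DESeq2 on both phases (chosen after seeing the data). The cause of these differences was not tested.

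Leaving out a horse gave 0 to 6 genes by edgeR and 7 to 14 by DESeq2, 30 to 63 genes without overlap (exchangeable labels give 0.433% of genes without an allergic and 0.606% without a healthy horse, with 22 genes for all horses, a count that can only grow at fixed scaling, and 17 with CPM from total counts), and 63.3% to 66.9% of intervals within 1 of 0 (75.9% with filterByExpr, which drops low genes). The difference in distance ranged from -0.0119 (without A6) to 0.0623 and that in detected genes from -11.1 (without A6) to 201.9, with -3.32 without H6 and 3.91 after thinning. No named gene reversed its direction, which is a description only for the genes chosen by their values in these libraries. Of 333 alternative values of named genes 20 passed the threshold.

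With 5 healthy horses, 1 of them unlike the rest in several genes, and few counts for the lowest genes, a missed threshold does not show likeness.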

Other observations

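A scan for genes with separate levels (a gap of over 1 on the log2(CPM + 4) scale, at least 3 libraries on each side, no gap within a side of over 50% of it) found 7 genes. Of these 4 are described in the report, the F13A1- and ATP6-matched genes and genes P1 and P2. Both sides of each of the other 3 held allergic and healthy horses, and the horses were on the same sides in the Remission Phase. A further member of the run of 26 identifiers was at 649 to 887 CPM in A2, A3, A6 and H4 and at 210.4 to 320 CPM in the other horses. Another gene was at 10.9 to 24.4 CPM in A1, A2, A3, A7 and H6 and at 0.170 CPM or less in the others. The third was at 21.2 to 47.4 CPM in A1, A3, A4, A5, A7, H6 and H7 and at 5.34 to 7.53 CPM in the others.

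Single horses also carried transcripts that the others lacked. One gene had 175 counts in A1 in the Clinical Phase and 136 in the Remission Phase, and at most 1 count in any library of another horse. A different gene had 115 and 79 counts in A5, and again at most 1 elsewhere. These genes were chosen after their values were seen, and no explanation was tested.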
